A study of Mus musculus with 4 samples.

Results

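The interferon regulatory factors are a family of transcription factors, and 8 members, *Irf1* to *Irf5* and *Irf7* to *Irf9*, were followed in Tc17 cells and cytotoxic T lymphocytes (CTLs). A member was taken as a gene named by the platform annotation of the arrays, with the probe set of highest mean where a gene had more than 1. All 8 members had a probe set, of 19938 genes with a probe set of their own, and all 8 passed the filter on low values that left 14953 genes to test. Both groups came from the spleen and lymph nodes of wild-type (WT) C57BL/6 mice, whose CD8+ T cells were purified by magnetic negative selection and kept in culture for 2 days. The Tc17 cultures (CD8+ cells that make IL-17) contained IL-2, IL-6, TGF-β and anti-IFN-γ, while the CTL cultures contained IL-2 and anti-IFN-γ. The antibody against IFN-γ was thus common to both. The methods of the study prime murine Tc17 cells with plate-bound anti-CD3 and soluble anti-CD28, and describe no CTL cultures. Each group had 2 biological replicates with 1 array each, named replicate 1 and 2 below. By the methods of the study the mice were 8 to 12 weeks of age. Whether replicates came from separate mice is not stated, so p-values reflect only the spread between these arrays, which may be technical. The design text calls the starting cells naive, whereas the sample protocol names only the magnetic purification. Levels are RMA intensities, taken as log2, so a difference of 1 is a 2-fold difference.

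Of the 8 members, *Irf7* and *Irf8* were lower in Tc17 cells than in CTLs, and none was higher. *Irf7* fell by 1.77 on the log2 scale (3.41-fold) and *Irf8* by 0.60 (1.52-fold). *Irf4*, which type 17 cells and effector CD8+ T cells both need, had nearly the same level in both cultures. The arrays of *Irf1* and *Irf2* lay higher and those of *Irf5* lower in Tc17 cells, by less than the test could call, and *Irf3* and *Irf9* overlapped between the groups. The threshold, a limma adjusted p under 0.05, was thus passed by 2 of the 8 members, both downward. Over all genes tested 15.7% passed it, with 8.22% going up and 7.44% going down in Tc17 cells.

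Interferon regulatory factors share a DNA-binding domain that reads the interferon-stimulated response element (ISRE), in which GAAA is repeated. Their roles differ. IRF3 and IRF7 are switched on by sensors of viral nucleic acid and induce the type I interferon genes, and IRF5 acts below Toll-like receptors. IRF9 is the DNA-binding subunit of ISGF3, the complex through which type I interferons act, and *Irf7* is among the genes that ISGF3 induces. IRF1 is induced by IFN-γ and activates genes of antigen presentation, and IRF2 competes with it for the same sites. IRF4 and IRF8 bind DNA weakly alone and pair with other factors, such as BATF and JUN in T cells or PU.1 in B and myeloid cells. In T cells IRF4 is induced by the T cell receptor.

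**Figure D1:**
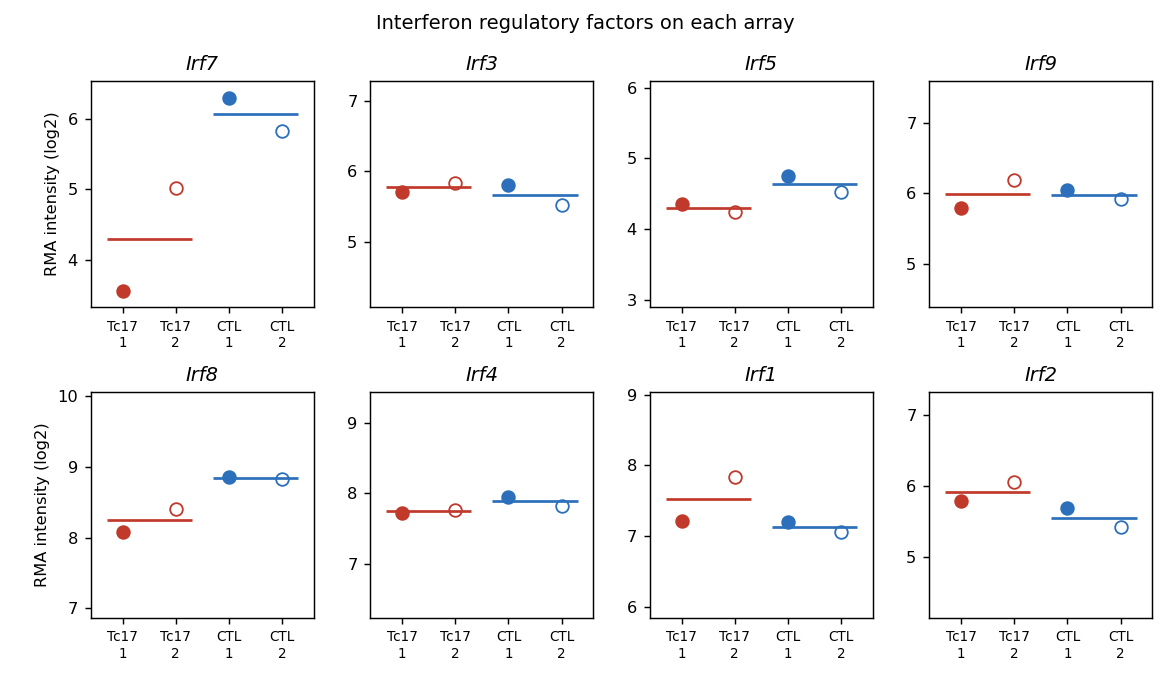
RMA intensity (log2, vertical axis, the same span in each panel) of each member on the 4 arrays. Red circles are Tc17 arrays and blue circles CTL arrays, with replicate 1 filled and replicate 2 open. Lines are group means. *Irf7* was at 3.56 and 5.01 in Tc17 cells, below both CTL arrays, and *Irf4* spanned only 7.73 to 7.95 over the 4 arrays.

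*Irf7*, which amplifies type I interferon production, was at 3.56 and 5.01 in Tc17 cells, against 6.30 and 5.82 in CTLs. Both Tc17 arrays lay below both CTL arrays, with Tc17 replicate 1 far below replicate 2. The difference was -1.77 ± 0.35 (log2 ± SE, 95% interval -2.54 to -1.0, limma adjusted p = 0.00526). The comparison of each Tc17 array with each CTL array gave -2.73 and -2.26 for Tc17 replicate 1, and -1.28 and -0.81 for Tc17 replicate 2. The Tc17 arrays differed from each other by 1.45, and 99.99% of the genes tested had a smaller difference between them. The CTL arrays differed by 0.47, more than 96.0% of genes. The size of the *Irf7* difference therefore varied with the arrays used. It was -1.05 without Tc17 replicate 1 (limma adjusted p = 0.00533) and -2.50 without Tc17 replicate 2, and passed without either CTL array too. The call was lost when moderation was robust and followed intensity (limma adjusted p = 0.0775) and when every row of the table was tested (limma adjusted p = 0.173). The value of Tc17 replicate 1 lay close to the median of that array, 3.20, and without detection calls its height above background is unknown.

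By the rule of smallest distance between centred profiles over the 4 arrays, the genes most like *Irf7* were *Ifit1* (distance 0.64), *Rtp4* (0.70) and *H2-T24* (0.74). *Ifit1*, an interferon-induced inhibitor of viral translation, was at 3.13 and 3.91 in Tc17 cells and 5.04 and 5.09 in CTLs. *Rtp4*, another interferon-induced gene, was at 2.53 and 3.04 in Tc17 cells and 4.52 and 4.22 in CTLs. *H2-T24*, a nonclassical MHC class I gene, was at 3.69 and 4.34 in Tc17 cells and 6.39 and 6.10 in CTLs. In each of these, as in *Irf7*, Tc17 replicate 1 was the lowest array, a likeness that follows largely from the rule that picked them. *Ifit1* and *Rtp4* also count among the target genes of ISGF3 and IRF7 below.

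*Irf8*, known as the factor that directs dendritic cell development and also expressed in activated CD8+ T cells, was at 8.08 and 8.41 in Tc17 cells, against 8.86 and 8.84 in CTLs. The CTL arrays nearly coincided and both Tc17 arrays lay below them. The difference was -0.60 ± 0.14 (95% interval -0.92 to -0.28, limma adjusted p = 0.0151). Array by array it was -0.78 and -0.76 for Tc17 replicate 1 and -0.44 and -0.42 for Tc17 replicate 2. The direction held with each array left out, but the call did not. It was lost without CTL replicate 1 (-0.59, limma adjusted p = 0.0667), without CTL replicate 2 (-0.61, limma adjusted p = 0.0553) and without Tc17 replicate 1 (-0.43, limma adjusted p = 0.111), and held without Tc17 replicate 2 (-0.77). It was also lost when every row of the table was tested (limma adjusted p = 0.142).

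B cells and myeloid cells make much IRF8, IRF5 and IRF7, so markers of such cells were read beside these members. Of the measured markers, 7 of 9 for B cells, 8 of 10 for dendritic cells, 7 of 8 for macrophages and monocytes and 6 of 8 for NK cells lay below the array median on all 4 arrays. The mean level of the B cell list was 2.84 and 2.87 in Tc17 cells and 2.96 and 2.73 in CTLs. That of the dendritic cell list was 2.73 and 2.78 in Tc17 cells and 2.67 and 2.66 in CTLs. The macrophage list was at 2.97 and 2.87 in Tc17 cells and 2.80 and 2.83 in CTLs, and the NK cell list at 2.97 and 2.73 in Tc17 cells and 2.97 and 2.95 in CTLs. The brightest marker of each was *Cd79b* (5.14 and 5.02 in Tc17 cells, 4.78 and 4.53 in CTLs), *Tcf4* (3.67 and 3.87 in Tc17 cells, 3.74 and 3.56 in CTLs), *Cd68* (5.32 and 4.89 in Tc17 cells, 4.28 and 3.91 in CTLs) and *Eomes*, which CD8+ T cells also express (3.07 and 3.73 in Tc17 cells, 6.26 and 5.68 in CTLs). Among the tested markers, 0 of 3 for B cells and 0 of 4 for dendritic cells passed, 1 of 5 for macrophages and monocytes was higher in Tc17 cells (*Cd68*, limma adjusted p = 0.00236), and of 4 for NK cells *Eomes* was lower and *Gzma* higher. *Gzma*, a granzyme that cytotoxic T cells also make, was at 5.94 and 3.71 in Tc17 cells and 2.69 and 2.45 in CTLs (2.26 ± 0.49, limma adjusted p = 0.00959), a difference of 1.14 without Tc17 replicate 1 and 3.37 without Tc17 replicate 2. Its CTL mean of 2.57 was below the filter level of 2.59, so *Gzma* passed the filter only through its Tc17 arrays. Its call was lost when moderation was robust and followed intensity (limma adjusted p = 0.304) and when every row was tested (limma adjusted p = 0.224). The part of other cell types in the differences of *Irf7* and *Irf8* was not tested. The 5 genes of the CD4+ and regulatory T cell list averaged 3.65 and 3.52 in Tc17 cells and 3.69 and 3.54 in CTLs, with *Zbtb7b* brightest (4.53 and 4.34 in Tc17 cells, 4.97 and 5.16 in CTLs). Of the 4 tested genes of that list *Zbtb7b* was lower in Tc17 cells and *Foxp3*, which defines regulatory T cells, higher (4.14 and 4.23 in Tc17 cells, 3.59 and 3.59 in CTLs, limma adjusted p = 0.00780). Neither call held without Tc17 replicate 2, nor that of *Zbtb7b* without CTL replicate 2. *Gzma* and *Foxp3* were named after their values were seen. The 8 measured CD8+ T cell markers averaged 9.30 and 9.35 in Tc17 cells and 8.95 and 8.95 in CTLs, led by *Cd3g* (10.59 and 10.66 in Tc17 cells, 9.62 and 9.64 in CTLs). Of these, 4 were higher in Tc17 cells, among them *Cd3g*, and 1 was lower. The lower gene was *Cd2*, at 9.35 and 9.34 in Tc17 cells, against 9.83 and 9.78 in CTLs (limma adjusted p = 0.0285, named after its values were seen). Over all genes tested, 8.22% were higher and 7.44% lower in Tc17 cells. In cultures read as a whole, fewer cells that express a gene and less RNA of it per cell cannot be told apart.

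The promoters of *Irf7* and *Irf8*, the members that fell, and of *Irf1* and *Irf2*, which hold matches, are shown for the motifs through which interferons act. All 8 members matched RefSeq promoter windows (build GRCm38.p6, 250 bases before to 50 after the start), with 11 windows in all because *Irf1*, *Irf8* and *Irf9* have a second one. Each was searched on both strands for the ISRE letters GAAANNGAAA and for TTCNNNGAA, the gamma-activated site (GAS) of genes that IFN-γ induces, whose letters are their own reverse complement. Capitals mark the matches, none of which overlap.
*Irf7*, chr7:141266375-141266674, minus strand: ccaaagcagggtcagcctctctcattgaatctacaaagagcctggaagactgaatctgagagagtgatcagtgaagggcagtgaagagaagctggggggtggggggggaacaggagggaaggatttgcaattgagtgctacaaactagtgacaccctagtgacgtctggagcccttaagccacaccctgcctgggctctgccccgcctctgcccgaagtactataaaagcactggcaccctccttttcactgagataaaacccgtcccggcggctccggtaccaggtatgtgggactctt
*Irf8*, chr8:120736108-120736407, plus strand: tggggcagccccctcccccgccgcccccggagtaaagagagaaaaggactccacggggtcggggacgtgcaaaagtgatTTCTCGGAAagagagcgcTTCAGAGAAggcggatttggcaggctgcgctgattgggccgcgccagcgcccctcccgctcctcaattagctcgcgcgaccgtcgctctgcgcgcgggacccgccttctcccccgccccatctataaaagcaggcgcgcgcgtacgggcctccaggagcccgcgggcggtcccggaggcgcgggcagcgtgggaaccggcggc
*Irf1*, chr11:53769764-53770063, plus strand: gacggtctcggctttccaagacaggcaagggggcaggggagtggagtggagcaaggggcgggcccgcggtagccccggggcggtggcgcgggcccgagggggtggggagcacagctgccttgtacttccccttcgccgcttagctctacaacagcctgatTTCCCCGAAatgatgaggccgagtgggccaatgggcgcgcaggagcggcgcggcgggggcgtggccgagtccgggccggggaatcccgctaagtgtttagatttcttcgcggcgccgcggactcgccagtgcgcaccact
*Irf2*, chr8:46739495-46739794, plus strand: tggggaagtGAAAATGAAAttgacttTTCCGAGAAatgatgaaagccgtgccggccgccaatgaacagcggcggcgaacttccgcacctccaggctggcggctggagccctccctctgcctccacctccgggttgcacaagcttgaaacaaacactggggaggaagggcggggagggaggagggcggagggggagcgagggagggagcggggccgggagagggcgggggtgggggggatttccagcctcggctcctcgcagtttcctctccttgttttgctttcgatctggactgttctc
A GAS match stood in 3 of the 11 windows, those of *Irf1*, *Irf2* and *Irf8* shown here, against 8.30% of 32851 windows of the same length. The *Irf8* window held 2, TTCTCGGAA and TTCAGAGAA, starting 171 and 153 bases before the transcription start, the *Irf1* window held TTCCCCGAA at 90 bases before it, and the *Irf2* window TTCCGAGAA at 224. An ISRE match stood in the *Irf2* window only (GAAAATGAAA, 241 bases before the start), against 3.44% of all windows. The *Irf7* window held neither set of letters. Of the 3 members with a GAS match, *Irf8* was lower in Tc17 cells, and *Irf1* and *Irf2* did not pass the test.

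*Irf4*, which is induced by the T cell receptor and works with BATF and JUN, was at 7.73 and 7.77 in Tc17 cells, against 7.95 and 7.82 in CTLs. Both Tc17 arrays were lower than both CTL arrays, by little. The difference was -0.14 ± 0.13 (95% interval -0.42 to 0.15, limma adjusted p = 0.571). The interval thus reached at most a decrease of 0.42 or an increase of 0.15. The Tc17 arrays differed by only 0.04, and the difference stayed between -0.20 and -0.07 with each array left out.

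*Irf1*, the activator induced by IFN-γ, was at 7.22 and 7.83 in Tc17 cells, against 7.19 and 7.06 in CTLs. Tc17 replicate 2 stood above the other 3 arrays, and Tc17 replicate 1 exceeded the CTL arrays by only 0.02 and 0.16. The difference was 0.40 ± 0.18 (95% interval -0.0048 to 0.80, limma adjusted p = 0.190). It rested on Tc17 replicate 2, since it was 0.09 without that array and 0.70 without Tc17 replicate 1 (limma adjusted p = 0.0155). A second *Irf1* probe set, annotated only to a cDNA clone, was dim, at 2.98 and 3.10 in Tc17 cells and 3.25 and 2.96 in CTLs, and with the mean of both probe sets the difference was 0.17.

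*Irf2*, the competitor of IRF1, was at 5.78 and 6.05 in Tc17 cells, against 5.68 and 5.42 in CTLs. Both Tc17 arrays lay above both CTL arrays. The difference was 0.36 ± 0.15 (95% interval 0.04 to 0.69, limma adjusted p = 0.136), and the smallest gap between a Tc17 and a CTL array was 0.10, less than the spread of 0.27 within either group. It was 0.23 without CTL replicate 2 or without Tc17 replicate 2.

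*Irf3*, a constitutive factor that responds to cytosolic nucleic acid, was at 5.71 and 5.84 in Tc17 cells, against 5.81 and 5.52 in CTLs. The groups overlapped. The difference was 0.11 ± 0.14 (95% interval -0.20 to 0.43, limma adjusted p = 0.686). *Irf9*, the DNA-binding subunit of ISGF3, was at 5.80 and 6.18 in Tc17 cells, against 6.04 and 5.92 in CTLs. The Tc17 arrays lay on either side of the CTL arrays. The difference was 0.0090 ± 0.15 (95% interval -0.32 to 0.34, limma adjusted p = 0.982). *Irf5*, a factor of Toll-like receptor signaling, was at 4.36 and 4.24 in Tc17 cells, against 4.74 and 4.52 in CTLs. Both Tc17 arrays were lower, and the difference of -0.33 ± 0.14 (95% interval -0.63 to -0.04) had a limma adjusted p of 0.135.

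**Figure D2:**
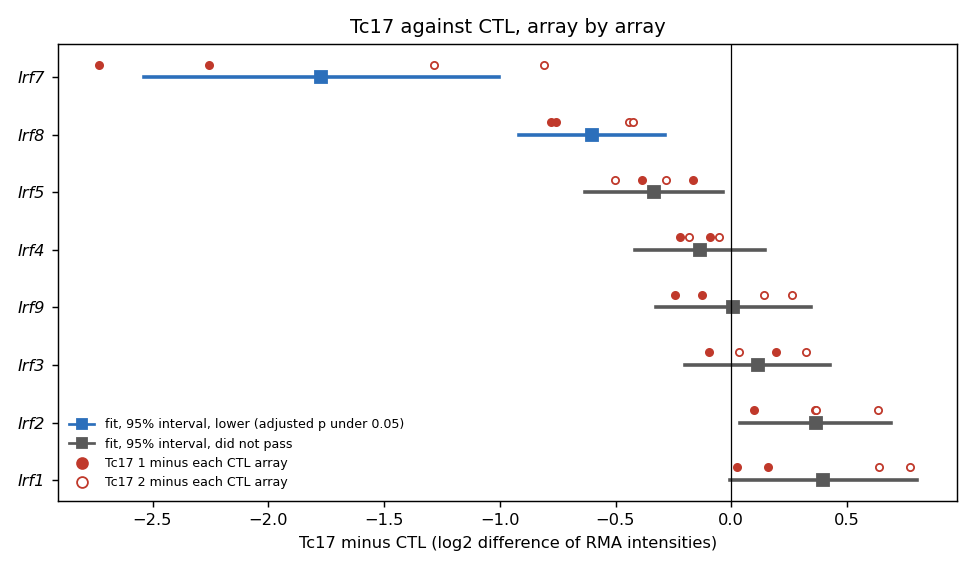
Difference between Tc17 cells and CTLs (log2, horizontal axis) of each member. Squares and bars are the limma estimate and its 95% interval, not adjusted for the number of genes (blue where the adjusted p was under 0.05), and small circles are single Tc17 arrays minus each CTL array, filled for Tc17 replicate 1 and open for replicate 2. *Irf7* lay at -1.77 and *Irf8* at -0.60, and the other 6 lay between -0.33 and 0.40.

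The 95% intervals of the 6 members that did not pass all lay within a 2-fold difference in either direction. The arrays of the groups did not overlap for 6 members, of which *Irf1* and *Irf2* were higher and *Irf4*, *Irf5*, *Irf7* and *Irf8* lower in Tc17 cells. Non-overlap was found for 54.4% of all genes tested, so this count is near the background. With 2 arrays a group an exact permutation test cannot give a p under 0.33.

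The replicates of a group also differed from each other in the same direction across most of the family. In 7 of the 8 members Tc17 replicate 1 was below Tc17 replicate 2, the exception being *Irf5*, while 45.1% of all genes tested were lower in that array. In 8 of 8 members CTL replicate 1 was above CTL replicate 2, against 54.0% of all genes. For *Irf1* the difference of 0.61 between the Tc17 arrays exceeded that of 98.8% of genes, for *Irf9* (0.39) that of 92.3% and for *Irf8* (0.33) that of 88.0%. For *Irf2* (0.27) it exceeded that of 80.2%, but for *Irf3* (0.13), *Irf5* (0.11) and *Irf4* (0.04) only that of 48.1%, 43.0% and 16.0%. Between the CTL arrays, the difference exceeded that of 7.62% of genes for *Irf8* (0.02), the smallest, and 96.0% for *Irf7*, the largest.

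**Figure D3:**
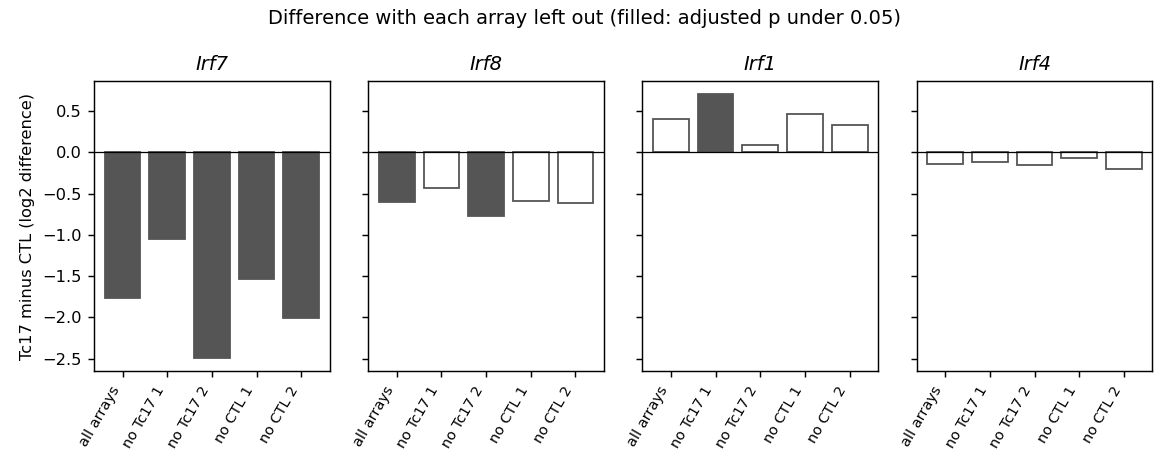
Difference between Tc17 cells and CTLs (log2, vertical axis) of *Irf7*, *Irf8*, *Irf1* and *Irf4* with all arrays and with each array left out in turn. Filled bars had a limma adjusted p under 0.05. *Irf7* ranged from -2.50 to -1.05 and passed in each fit, *Irf8* passed only with all arrays and without Tc17 replicate 2, and *Irf1* passed only without Tc17 replicate 1.

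Target genes of ISGF3 and IRF7, which defend the cell against viruses, were mostly lower in Tc17 cells. Of 22 tested genes of this list 17 fell and none rose, against 7.44% lower among all genes, and the median difference was -1.01, against 0.02 over all genes tested. *Mx2* and *Cmpk2*, among those that fell, had Tc17 means of 2.52 and 2.45, so they passed the filter only through their CTL arrays. *Rtp4*, *Mx1*, *Rsad2* and *Xaf1* also lay below the array medians on both Tc17 arrays, where height above background is unknown. Apart from *Rtp4*, these genes were named after their values were seen. *Usp18*, which removes ISG15 from proteins and dampens interferon receptor signaling, was at 4.12 and 4.19 in Tc17 cells, against 7.53 and 6.97 in CTLs. *Oas3*, a sensor of double-stranded RNA, was at 3.85 and 4.39 in Tc17 cells, against 6.57 and 6.13 in CTLs. These were the largest decreases, -3.09 ± 0.17 (limma adjusted p = 8.85e-07) and -2.23 ± 0.20 (limma adjusted p = 2.82e-05), with no overlap between groups. The list median lay 1.2 below the CTL mean in Tc17 replicate 1 and 0.95 below it in Tc17 replicate 2. Tc17 replicate 1 was the lower Tc17 array for 17 of the 22 genes, as it was for *Irf7*, and CTL replicate 1 was the higher CTL array for 19. Over all genes tested these shares were 45.1% and 54.0%. With each array left out in turn, 16 to 18 of the 22 genes were lower.

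Target genes of IRF1 were lower in part. Of 23 tested genes 7 fell and 1 rose, against 7.44% lower and 8.22% higher among all genes tested. The median difference was -0.34, while *Irf1* itself did not pass and lay above the CTL arrays on both Tc17 arrays. The count that fell was 4 without CTL replicate 1, 4 without Tc17 replicate 1 and 4 after cyclic loess. *Cxcl10*, a chemokine that attracts activated T cells, was at 3.53 and 3.64 in Tc17 cells, against 5.82 and 5.33 in CTLs (-1.99 ± 0.16, limma adjusted p = 1.83e-05). The guanylate-binding protein genes *Gbp7* and *Gbp3*, of host defense, went opposite ways and depended on single arrays. *Gbp7* was at 4.52 and 5.77 in Tc17 cells, against 6.29 and 6.15 in CTLs. Its difference of -1.07 ± 0.29 (limma adjusted p = 0.0307) no longer passed without CTL replicate 1 (-1.0), without CTL replicate 2 (-1.14) and without Tc17 replicate 1 (-0.45). It was -1.69 without Tc17 replicate 2. *Gbp3* was at 5.77 and 6.42 in Tc17 cells, against 5.51 and 5.43 in CTLs. Its difference of 0.63 ± 0.19 (limma adjusted p = 0.0426) held without Tc17 replicate 1 (0.96), but not without CTL replicate 1 (0.67), CTL replicate 2 (0.59) and Tc17 replicate 2 (0.31). Neither *Gbp3* nor *Gbp7* passed with cyclic loess or with no filter on low values.

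**Figure D4:**
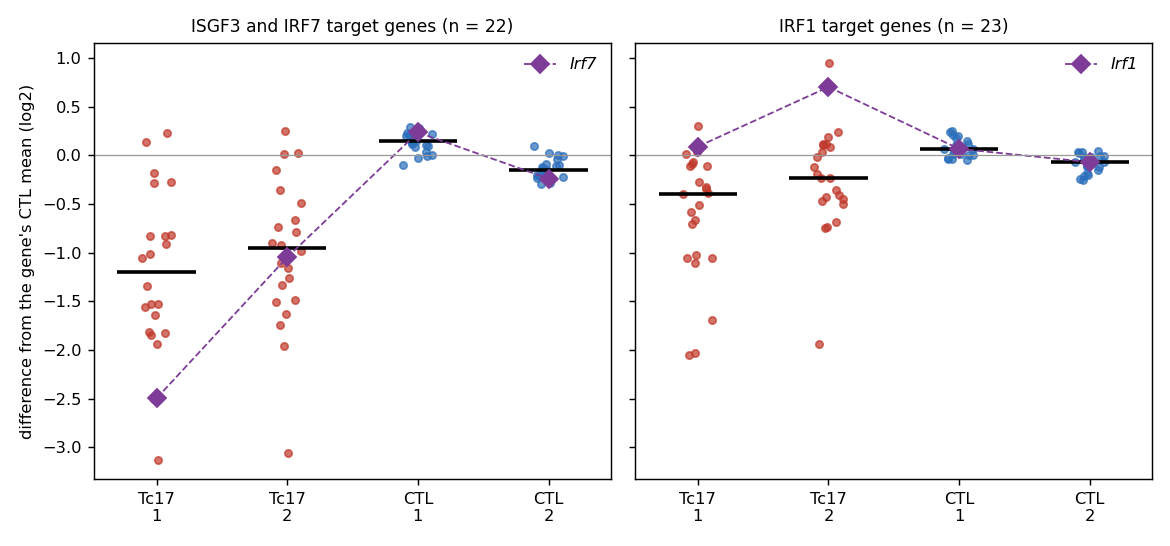
Difference of each target gene from its own CTL mean (log2, vertical axis) on the 4 arrays, for 22 target genes of ISGF3 and IRF7 (left) and 23 of IRF1 (right). Circles are genes, red on Tc17 and blue on CTL arrays, black bars are medians, and purple diamonds joined by a dashed line are *Irf7* (left) and *Irf1* (right). The medians of the left list were -1.2 and -0.95 in Tc17 replicates 1 and 2, and those of the right list -0.39 and -0.23.

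In the list of interferon receptors, their ligands, kinases and regulators, 4 of 14 tested genes were higher and 3 lower, with a median difference of 0.08. Over all genes tested 8.22% were higher and 7.44% lower. The lower genes were *Ifng*, *Ifna2* and *Usp18*, while the receptor and kinase genes that passed were all higher. These were *Ifngr1*, *Ifngr2* (1.49 ± 0.14) and *Jak1* (0.90 ± 0.13), the last 2 named after their values were seen. *Socs3*, a feedback inhibitor of cytokine signaling, was at 7.51 and 7.65 in Tc17 cells, against 5.87 and 5.50 in CTLs (1.89 ± 0.15, limma adjusted p = 1.42e-05, and 1.13 with the mean of its probe sets). *Ifngr1*, a chain of the IFN-γ receptor, was at 8.55 and 8.61 in Tc17 cells, against 6.48 and 6.93 in CTLs (1.87 ± 0.16, limma adjusted p = 2.13e-05). *Ifng*, the ligand, was at 5.91 and 6.24 in Tc17 cells, against 10.57 and 10.08 in CTLs (-4.25 ± 0.18, limma adjusted p = 1.07e-07). *Usp18* is also on this list. The subunits of the type I interferon receptor and STAT2 were looked at after their values were seen. *Ifnar1* differed by 0.05 ± 0.13, *Ifnar2* by 0.23 ± 0.13 and *Stat2*, the partner of IRF9, by -0.35 ± 0.16, none past the threshold (lowest limma adjusted p = 0.196). Of the type I interferon genes, *Ifna2* was tested and fell, at 2.80 and 2.64 in Tc17 cells, against 3.23 and 3.42 in CTLs (-0.60 ± 0.14, limma adjusted p = 0.0109, named after its values were seen). All 4 of its values were near the array medians or below them, and the call did not hold without CTL replicate 2 (-0.51) or Tc17 replicate 2 (-0.52). *Ifna4* and *Ifnb1* were below the filter level of 2.59 in the mean over the arrays and were not tested.

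Of 24 tested genes that signal to IRF3, IRF5 and IRF7, 6 fell and 1 rose, with a median difference of -0.05. Among all genes tested 7.44% fell and 8.22% rose. The viral RNA sensor *Ifih1* was at 3.04 and 3.31 in Tc17 cells, against 5.04 and 4.70 in CTLs (-1.69 ± 0.15, limma adjusted p = 3.60e-05). The nucleic acid sensor *Zbp1* was at 4.76 and 5.35 in Tc17 cells, against 6.47 and 6.20 in CTLs (-1.28 ± 0.19, limma adjusted p = 8.54e-04). Both sensors are themselves interferon-induced. *Cyld*, a deubiquitinase that restrains this signaling, was at 7.04 and 7.08 in Tc17 cells, against 6.55 and 6.41 in CTLs (0.58 ± 0.13, limma adjusted p = 0.0101). The call did not hold without CTL replicate 2 (0.51) or Tc17 replicate 2 (0.56). *Tbk1*, the kinase of IRF3 and IRF7, differed by 0.10 ± 0.14 (limma adjusted p = 0.704, named after its value was seen).

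Among 11 tested partners with which IRF4 and IRF8 bind DNA, 5 rose and 1 fell, and the median difference was 0.38. The shares over all genes tested were 8.22% up and 7.44% down. The Ikaros family factor *Ikzf3* was at 7.72 and 7.85 in Tc17 cells, against 6.47 and 6.02 in CTLs (1.54 ± 0.16, limma adjusted p = 8.40e-05). The T cell factor *Ets1* was at 9.0 and 9.02 in Tc17 cells, against 7.67 and 7.63 in CTLs (1.36 ± 0.12, limma adjusted p = 3.92e-05). *Batf3*, which works with IRF8 in dendritic cells, fell and was at 5.59 and 5.82 in Tc17 cells, against 7.43 and 6.49 in CTLs (-1.25 ± 0.24, limma adjusted p = 0.00444), a difference of -0.79 without CTL replicate 1. *Batf*, the partner of IRF4, was at 6.48 and 6.34 in Tc17 cells, against 5.85 and 5.95 in CTLs (0.51 ± 0.13, limma adjusted p = 0.0208). That call did not hold without CTL replicate 1 (0.46) or Tc17 replicate 1 (0.44). *Spi1*, which encodes PU.1, and *Spib* were below the filter level.

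Genes known to need IRF4 were read in a type 17 list and a list of activated CD8+ T cells. Of 9 tested type 17 genes, 7 rose and none fell, with a median difference of 2.39, against 8.22% up and 7.44% down among all genes. The study names several of these as type 17 genes and drew gene sets from these arrays, so their direction is not independent evidence. *Il21*, which rose, and *Il23r*, which did not pass the threshold, had CTL means of 2.17 and 2.45, below the filter level of 2.59. Both thus passed the filter only through their Tc17 arrays, and were named after their values were seen. *Il17f* was at 9.22 and 8.70 in Tc17 cells, against 2.94 and 3.35 in CTLs, and the aryl hydrocarbon receptor *Ahr* at 7.55 and 7.65 in Tc17 cells, against 3.73 and 3.57 in CTLs. Their differences were 5.81 ± 0.19 and 3.95 ± 0.13 (limma adjusted p = 3.16e-08 for each). Of 15 tested genes of activated CD8+ T cells, 2 rose and 5 fell, beside the same shares over all genes, with a median difference of -0.27. The count that fell was 3 without CTL replicate 1 and 3 without Tc17 replicate 1. *Id2*, a regulator of effector cells, was at 7.45 and 7.62 in Tc17 cells, against 6.84 and 6.74 in CTLs (0.75 ± 0.13, limma adjusted p = 0.00269), and *Batf* also counts here. *Ifng* fell most, followed by *Gzmb*, the cytotoxic protease granzyme B, at 9.30 and 9.19 in Tc17 cells, against 11.58 and 11.56 in CTLs (-2.33 ± 0.13, limma adjusted p = 7.03e-07). The study names both among its CTL genes and drew a CTL gene set from these arrays, so their direction is not independent evidence either.

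**Figure D5:**
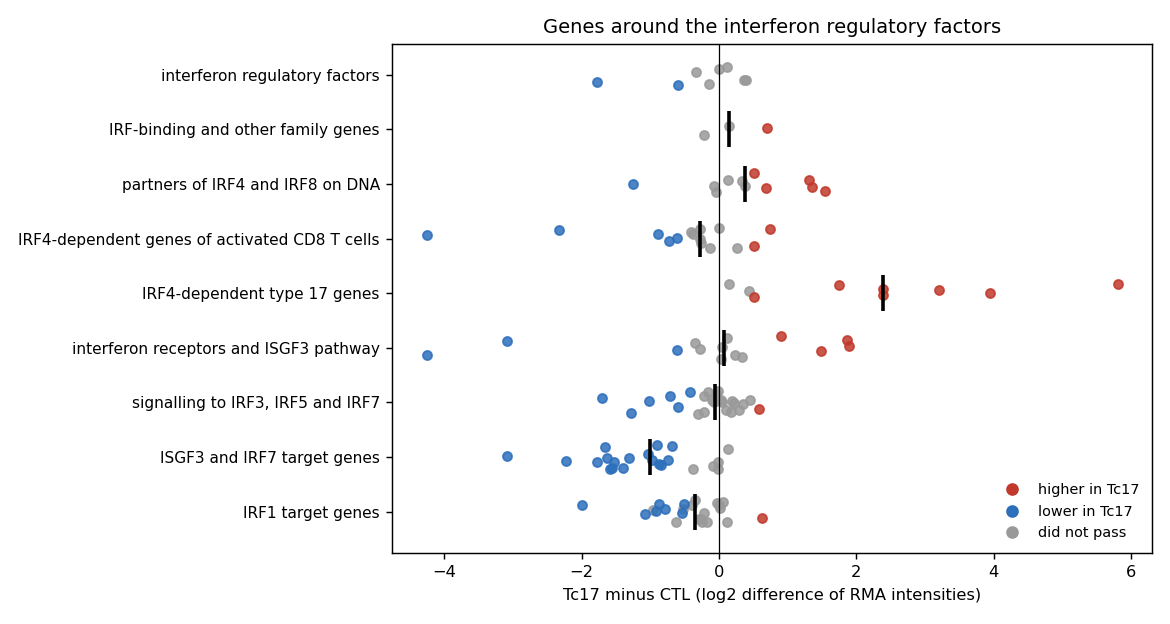
Difference between Tc17 cells and CTLs (log2, horizontal axis) of the 8 members (top row) and of each tested gene of 8 lists around them. Red points rose and blue points fell in Tc17 cells by the limma threshold of 0.05, with the rest in grey. Black bars mark list medians. The median of the ISGF3 and IRF7 target list was -1.01 and that of the IRF4-dependent type 17 list 2.39.

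The genes of IRF2-binding proteins, which act as co-repressors, were read as relatives of the family. *Irf2bpl* was at 5.17 and 5.45 in Tc17 cells, against 4.55 and 4.66 in CTLs, and rose by 0.71 ± 0.14 (limma adjusted p = 0.00547), a call lost without Tc17 replicate 2 (0.57, limma adjusted p = 0.0526). *Irf2bp1* was at 4.77 and 4.45 in Tc17 cells, against 4.92 and 4.75 in CTLs, and *Irf2bp2* at 6.99 and 6.76 in Tc17 cells, against 6.78 and 6.69 in CTLs. Neither passed, with differences of -0.22 ± 0.15 (limma adjusted p = 0.387) and 0.14 ± 0.14 (limma adjusted p = 0.569).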

How the data were processed

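Gene expression was measured on whole-transcript oligonucleotide arrays, 1 per sample. The authors deposited RMA values, here taken as log2, that is, intensities corrected for background, quantile-normalised between arrays and summarised per probe set. No source used here gives the RMA version, its settings, the log base or a genome build, and the range of 1.18 to 13.70 is that of log2 intensities. Quantile normalisation hides a shift of all genes, and the table holds no detection calls. Array medians were 3.20 and 3.19 for Tc17 cells and 3.18 and 3.19 for CTLs, and replicates correlated at 0.993 across genes in both groups, against 0.967 to 0.973 between groups. For arrays, their number limits the precision.

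Probe sets with 1 annotated gene symbol (21789 of 35557 rows) were kept, the brightest per gene was used, and genes with a mean under the 25th percentile (2.59) were left out. That mean was over all arrays, so a gene could pass through the group in which it was bright. Tc17 cells were compared with CTLs in limma 3.58.1 (R 4.3.3), two-sided, unpaired, with Benjamini-Hochberg adjustment over 14953 genes and a threshold of 0.05. The fit was tested on simulated data first. Differences are Tc17 minus CTL.

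The members and the 8 lists were chosen, with general knowledge of the pathway, when earlier results of these data were known, and lists are described by counts and medians alone. In the lists *Sting1* and *Cgas* were found under their newer symbols, and genes with no probe set of their own were not analysed here. Named genes were all members, the 2 largest increases and 2 largest decreases past the threshold in each list, the relatives of the family, the brightest marker of each cell type, and the 3 genes nearest to a member. Genes named after their values were seen are marked, apart from the untested *Spi1*, *Spib*, *Ifna4* and *Ifnb1*. Alternatives were other filters, moderation, normalisation and thresholds, the mean of probe sets, every row tested, the replicate number as a block, and each array left out, where a group left with 1 array is assumed to vary like the other. Promoter sequences are from RefSeq. Figures were drawn with Python 3.11.15 and matplotlib 3.10.9.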

Additional observations from a re-analysis of the deposited data

How the results depend on the processing

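Of 2342 genes that differed over all genes tested, the count was 684 when every row was tested, 919 at an adjusted p under 0.01 with a log2 difference of at least 0.75, and 1421 to 1924 with each array left out. The count of 2 members was 1 with robust moderation that followed intensity (*Irf7* lost), 0 when every row was tested, 1 at the stricter thresholds (*Irf8* lost), and 1 to 2 with an array left out. The cause of these losses was not tested. With an array left out, the counts higher in Tc17 cells ranged from 0 to 1 for relatives of the family, 1 to 2 for IRF4-dependent genes of activated CD8+ T cells, 0 to 2 for signaling to IRF3, IRF5 and IRF7 and 0 to 1 for IRF1 targets. Counts lower in Tc17 cells ranged from 3 to 5 for IRF4-dependent genes of activated CD8+ T cells, 2 to 3 for receptors and ISGF3, 4 to 5 for signaling to IRF3, IRF5 and IRF7, and 4 to 9 for IRF1 targets. IRF1 targets gave 0 higher with cyclic loess or median centring and 4 lower with cyclic loess.

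Directions turned only for members close to 0. With an array left out, *Irf3* ranged from -0.030 (without CTL replicate 2) to 0.26. *Irf9* ranged from -0.18 (without Tc17 replicate 2) to 0.20, and was -0.05 without CTL replicate 2. The labels do not say what a replicate number shares, so the numbers were not taken as pairs. Same-numbered replicates did not deviate together (r = 0.02 across 14953 genes), which cannot show whether they were paired. With the replicate block 2322 genes differed, and *Irf7* (limma adjusted p = 0.00632) and *Irf8* (limma adjusted p = 0.0179) were the members called. Of the alternatives for the other named genes, 394 kept the direction and the side of the threshold, 46 lost a call and 1 gained one. The genes counted fell to 1538 without CTL replicate 1 and 1421 without Tc17 replicate 2. Signal over background could not be assessed, which matters most for *Irf7*, dim in Tc17 replicate 1.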

Other observations

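The difference between the Tc17 arrays was widest among IRF1 targets for *Iigp1*, an IFN-γ-induced GTPase named after its values were seen, at 3.05 and 5.19 in Tc17 cells, against 5.19 and 4.96 in CTLs. Tc17 replicate 1 lay below the other 3 arrays, and the difference between the groups did not pass (-0.96 ± 0.48, limma adjusted p = 0.230). Of the 23 tested IRF1 targets, 18 were lower in Tc17 replicate 1 than in Tc17 replicate 2, against 45.1% of all genes tested. The median difference between these arrays was -0.23, against 0.02 over all genes tested.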
